A study of Mus musculus with 58 samples.

Results

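The genes described here carry the insulin and insulin-like growth factor (IGF) signal from its receptors to the FOXO transcription factors. They are the receptors Igf1r, Insr and Igf2r, the adaptors Irs1 and Irs2, the kinase Akt1 and the transcription factors Foxo1, Foxo3 and Foxo4. These 9 symbols were listed by name, and all were found among the 55376 gene symbols of every RNA count table. Insulin and IGF1 bind receptor tyrosine kinases, which phosphorylate IRS adaptors, and the adaptors recruit phosphoinositide 3-kinase (PI3K), whose lipid product brings AKT to the membrane. Active AKT phosphorylates FOXO proteins and holds them in the cytoplasm, so that low insulin or IGF1 lets FOXO proteins enter the nucleus and act on genes of cell cycle arrest, oxidant defence and fuel use. FOXO proteins are known for keeping hematopoietic stem cells (HSCs) quiescent and for limiting their oxidant load, and circulating insulin and IGF1 are known to fall under caloric restriction. A transcript level does not report receptor activation, AKT phosphorylation or the place of FOXO protein in the cell.

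The study sorted HSCs from male C57BL/6 mice and sequenced their RNA after SMART amplification; the labels give polyA RNA and also a kit for total RNA. Old ad libitum (OAL, 4 libraries) HSCs came from mice of 24 to 26 months with free access to chow, old restricted (OCR, 4) from mice on 40% restriction from the age of 3 to 4 months, and old refed (OCRRF, 2) from such mice given food freely for the last 4 weeks. Young mice of 3 to 4 months at the start gave the YAL (ad libitum), YCR (4 weeks of restriction, 20% in the first week and 40% in the other 3) and YCRRF (then refed for 4 weeks) groups, with 4 libraries each. The study obtained old ad libitum and restricted mice from the NIA Aged Rodent Colony and young mice from The Jackson Laboratory. In the other experiment, HSCs of aged donors carried a lentivirus with a Kdr shRNA (KDRKD, 4) or its scramble (KSCR, 2), or both Kdr and Bmpr1a shRNAs (DKD, 4, with 2 libraries for each of 2 Bmpr1a hairpins) or the matching scrambles (DSCR, 2). These cells all went through culture and through transplantation into lethally irradiated young female CD45.1 recipients before they were sorted again by fluorescence, so they spent a time in a medium whose ITSX supplement holds insulin, and in hosts of another sex. Restricted and refed old mice also gave ATAC-seq libraries of open chromatin (OCR 4, OCRRF 2), restricted old mice gave H3K4me3 and H3K27me3 ChIP-seq libraries (2 each), and OAL, OCR and OCRRF mice gave PU.1 ChIP-seq libraries (2 each). The PU.1 libraries grouped here as OAL carry OWT in their titles. PU.1 is a transcription factor of blood stem and progenitor cells. The labels do not say that the libraries of a group come from separate animals or whether animals were pooled. The study's legends count the HSC sources as mice, with n = 4 for OAL and OCR and 2 for OCRRF. All p-values here measure the spread between libraries.

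Diet libraries held 11102898 to 36579392 counts, the lowest being YCRRF replicate 4, and libraries of transplanted cells held 35657999 to 44780217. The 9 HSC markers looked for, among them Procr, Slamf1, Mecom and Hlf, all averaged above 1 CPM (counts scaled to depth), and Kit was the most abundant at 1553 CPM in diet and 1501 CPM in transplant libraries. Of 6 T cell markers, Cd3e, Cd3d, Cd3g, Trac and Cd8a were under 1 CPM on average in both sets, Cd4 averaged 1.40 CPM in diet libraries, and the highest sum was 12.7 CPM, in YCR replicate 4. B cell and plasma cell markers summed to 48.3, 211, 413 and 245 CPM in the 4 YCR libraries against 61.6 to 115 CPM in YAL, and neutrophil and monocyte markers reached 2058 CPM in YCRRF and 4944 CPM in DSCR. Of the diet libraries, the old ones detected 42071 to 46646 genes and the young ones 22209 to 33496. Olfactory and vomeronasal receptor genes, which HSCs are not known to use, together had a median of 0.113 CPM per kilobase in OAL, 0.130 in OCR, 0.230 in OCRRF, 0.0316 in YAL, 0.0439 in YCR and 0.0305 in YCRRF. This read background was higher in every OAL library than in any YAL library, so age and library background cannot be told apart for genes of very low level. Old and young libraries also differ in genes detected and in the source of the mice. For no gene can age be told apart from these. In bulk libraries, fewer cells of a type and less RNA per cell cannot be told apart either.

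Levels were first set in order per length of exon, as mean CPM per kilobase in OAL. Akt1 stood at 72.9, far above the rest. Igf1r (9.86) and Foxo1 (9.42) followed, then Igf2r (6.63), Irs2 (5.82), Insr (5.77) and Foxo3 (4.27), with Foxo4 (0.967) and Irs1 (0.237) last. YAL libraries had the same gene at each end, with Akt1 at 85.8 and Irs1 at 0.0413 CPM per kilobase, and Foxo1 (8.44), Igf1r (6.86) and Foxo3 (6.77) next to each other. Of the adaptors, Irs2 was thus the abundant transcript in both ages. The Irs1 level is of the order of the receptor-gene background given above for the old groups, and is read below with that background beside it. All other values in CPM are scaled by trimmed mean of M-values (TMM) over the 22 diet or the 12 transplant libraries and compare 1 gene between libraries.

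Lifelong restriction was compared with free feeding in old HSCs, and 4 of the 9 genes were called lower in OCR than in OAL, the others not passing the test. A call needs a Benjamini-Hochberg adjusted p under 0.05 in edgeR's quasi-likelihood test over all genes tested and a fold change above 1.2, and 5.57% of the 27150 genes tested were called in this comparison. The called genes are the receptors Igf1r and Insr, the adaptor Irs2 and the transcription factor Foxo1. The kinase Akt1, which links the adaptors to FOXO, was not called (adjusted p = 0.629). Median log2 fold change over the 9 was -0.12, beside 0.02 over all genes tested. Marker sums moved between these groups too: endothelial markers were at 429.5, 445, 424 and 463 CPM in OAL, 308, 373, 345 and 359 in OCR and 450.3 and 386 in OCRRF, with no overlap of OCR with either other group. Most of the endothelial sum came from Tie1, at 301 CPM on average over the diet libraries, and Cdh5 averaged under 1 CPM. Kdr, the target of the knockdowns, is part of that sum, at a mean of 42.0 CPM in OAL and 18.8 in OCR. The sum therefore does not report endothelial cells by itself. HSC markers had a median of 4247 CPM in OAL and 3809 in OCR, with overlap. Whether the 4 genes move with these markers for a shared reason was not tested.

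Igf1r encodes the receptor tyrosine kinase for IGF1 (chr7:67952827-68233668, plus strand, GRCm38). Its level was 159, 171, 153 and 179 CPM in the 4 OAL libraries, 125, 136, 136 and 145 in OCR and 168 and 151 in OCRRF. Every OCR library lay below every OAL library and both OCRRF libraries lay above every OCR library. The log2 fold change of OCR against OAL was -0.27 (SE 0.08, adjusted p = 0.046), a call that edgeR with DESeq2 size factors put at adjusted p = 0.0512 and that was kept in 7 of 14 alternative fits, over which adjusted p ran from 0.0172 to 0.223. Insr encodes the insulin receptor (chr8:3122061-3279617, minus strand). Insr was at 76.6, 81.6, 72.9 and 85.9 CPM in OAL, 66.0, 57.6, 64.2 and 67.3 in OCR and 72.7 and 77.9 in OCRRF, again without overlap of OCR with either other group. Its log2 fold change in OCR against OAL was -0.30 (SE 0.09, adjusted p = 0.0348), and the call was kept in 9 of 14 alternatives (adjusted p 0.00919 to 0.188). It was lost when any 1 of OAL replicates 1, 2 and 4 or OCR replicates 1 and 2 was left out, and the Igf1r call was lost without the same 5 libraries. Igf2r, which binds IGF2 and mannose 6-phosphate and leads IGF2 to degradation rather than signalling as a kinase, ranged from 46.3 to 69.7 CPM in OCR and from 53.5 to 72.3 in OAL, and the groups overlapped.

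Irs2 encodes an adaptor of both receptors (chr8:10984681-11008458, minus strand). Its level was 38.4, 35.2, 39.2 and 34.5 CPM in OAL and 22.3, 20.8, 25.0 and 28.2 in OCR, with 34.8 and 25.0 in OCRRF. The 4 OCR values all lay below the 4 OAL values, and of the refed libraries replicate 1 was inside the OAL range and replicate 2 inside the OCR range. Irs2 changed by a log2 fold change of -0.60 (SE 0.11, adjusted p = 0.00034) in OCR against OAL, and was called in 14 of 14 alternative fits. Irs1, the other adaptor, was at 2.36, 1.58, 2.63 and 2.1 CPM in OAL and 2.47, 1.09, 2.62 and 2.70 in OCR, and its groups overlapped. Akt1 (chr12:112653821-112674884, minus strand), the kinase between PI3K and FOXO, was at 302, 296, 307 and 290.4 CPM in OAL and 293, 298, 252 and 261 in OCR. Those ranges overlapped, and Akt1 was not called.

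Foxo1 (chr3:52268336-52353221, plus strand) gave the largest log2 fold change of the 9 in OCR against OAL. It was at 82.7, 74.3, 80.1 and 89.3 CPM in OAL, 49.3, 47.4, 41.1 and 53.2 in OCR and 68.5 and 64.4 in OCRRF. The refed values lay in the gap between the OCR and the OAL libraries, above all of the first and below all of the second. In OCR the log2 fold change from OAL was -0.76 (SE 0.09, adjusted p = 1.8e-06), and all 14 alternative fits called it. Foxo3, the FOXO gene best known for HSC maintenance, was at 28.4, 30.7, 33.7 and 36.4 CPM in OAL, 37.1, 29.9, 29.6 and 38.3 in OCR and 33.9 and 34.3 in OCRRF, so the 3 old groups overlapped. Foxo4 was at 2.64 to 3.61 CPM in OCR and 2.98 to 4.32 in OAL, and neither Foxo3 nor Foxo4 was called. Exons of Foxo1 share 674 bases (7.78% of its exon length) with the antisense gene Gm20402, and those of Irs2 share 162 bases with an antisense transcript. Whether the counts use strand is not given in the sources used here, so reads in these stretches cannot be assigned to 1 gene with certainty.

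**Figure D1:**
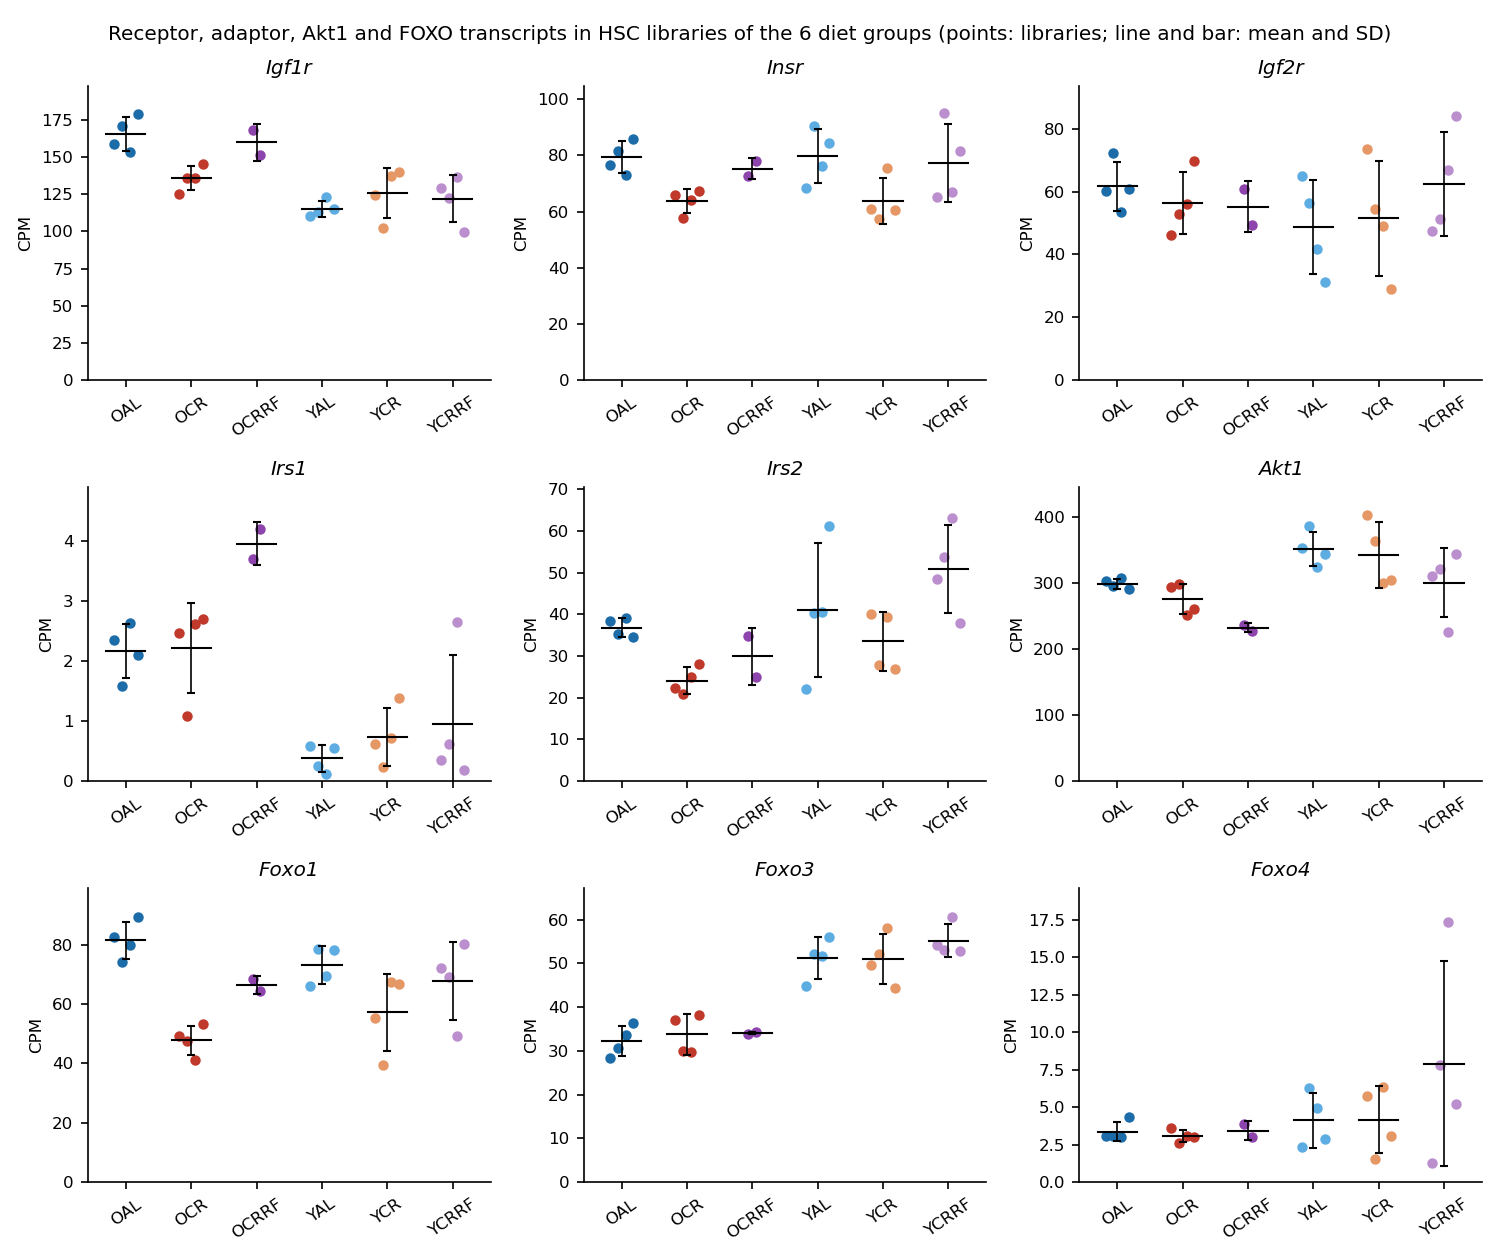
CPM of the 9 genes (y axis) in each HSC library of the 6 diet groups (x axis), with points for libraries and a line and bar for the group mean and SD (n = 4, and 2 for OCRRF). Foxo1, Irs2, Igf1r and Insr are lower in all 4 OCR libraries than in all 4 OAL libraries, and Foxo3 is lower in all old than in all young libraries.

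Refeeding was then read in both directions. Against OCR, 0 of the 9 genes were called in OCRRF by edgeR, where 3.41% of 32577 genes were called; 3 of the 9 and 16.9% of all genes had an unadjusted p under 0.05, and DESeq2 called 1, Akt1, among 2391 over all genes. The smallest p was that of Foxo1, with a log2 fold change of 0.42 (SE 0.13, adjusted p = 0.062) and a 95% interval of 0.16 to 0.68. Foxo1 passed the threshold under 4 of 12 alternatives, over adjusted p values from 0.00393 to 0.526. Against OAL, 2 of the 9 were called lower in OCRRF (of 31816 genes, 4.14% were called). Akt1 was at 237 and 227 CPM in OCRRF, below every OAL and every OCR library. Its log2 fold change against OAL was -0.38 (SE 0.06, adjusted p = 0.0121), and that of Foxo1 was -0.31 (SE 0.09, adjusted p = 0.0497). With any 1 library left out, 38 to 386 genes were called in this comparison. Foxo1 lost its call in each of these 6 fits, and Akt1 lost it without either OCRRF library and kept it without any 1 OAL library. With genes of at least 5 CPM alone Akt1 had adjusted p = 0.142 and Foxo1 0.439. Markers moved as well: OCRRF had 3629 and 3569 CPM of HSC, 1048 and 1247 of erythroid, 47.0 and 54.6 of megakaryocyte, 6.61 and 7.54 of T cell and 22.3 and 20.1 of stromal markers, all outside the OAL ranges (4056 to 4622, 1483 to 1824, 61.0 to 74.7, 3.85 to 4.38 and 16.6 to 19.3). Against OCR, erythroid (1330.0 to 1616), megakaryocyte (60.1 to 116), endothelial, and B cell and plasma cell markers (34.8 to 40.9, beside 43.0 and 43.0 in OCRRF) did not overlap. Their part in the changes of the 9 genes was not tested. Most of the erythroid sum came from Car2, at 1480 CPM on average over the diet libraries. The receptor-gene background was higher in both OCRRF libraries than in all OAL libraries, and its part in the low T cell sums was not tested. These comparisons share the OCR or OAL libraries with the first one.

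Irs1 was highest in the refed libraries, at 3.71 and 4.21 CPM, above all OAL and OCR values given above, and was not called (adjusted p = 0.0611 against OAL and 0.188 against OCR, edgeR), while DESeq2 called it and Irs2 against OAL. Reads on olfactory and vomeronasal receptor genes were also high there, at 1207 and 1546 CPM in sum, against 552 to 786 in OAL and 584 to 1308 in OCR, where replicate 3 reached into the refed range. Among the young libraries, YCRRF replicate 3 (2.65 CPM) and YCR replicate 4 (1.39) had the most Irs1. The same pair of libraries had the most receptor-gene reads of the young ones, 487 and 498 CPM. The part of this background in the Irs1 values was not tested. Irs1 exons also share 2822 bases (30.9% of exon length) with Gm9747 on the opposite strand.

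Short-term restriction of young mice gave no call among the 9 genes by edgeR, where 0.364% of 18680 genes were called; 1 of the 9 and 9.29% of all genes had an unadjusted p under 0.05, and DESeq2 called 0 of the 9 and 527 over all genes. The 1 at an unadjusted p under 0.05 was Insr, at 68.5, 90.3, 76.0 and 84.2 CPM in YAL and 61.0, 57.4, 75.7 and 60.4 in YCR, ranges that overlapped through YCR replicate 3. Its log2 fold change was -0.31 (SE 0.13, adjusted p = 0.501), with a 95% interval of -0.61 to -0.02. Foxo1 was at 66.0, 78.7, 69.5 and 78.2 CPM in YAL and 55.4, 39.5, 67.3 and 66.8 in YCR, where replicates 3 and 4 lay inside the YAL range and replicates 1 and 2 below it. Irs2 spread widely among young libraries, at 22.0, 40.3, 40.7 and 61.3 CPM in YAL and 40.0, 27.8, 39.4 and 26.9 in YCR, so that the YAL values alone spanned all YCR values. Endothelial markers (464 to 499.6 CPM in YAL, 391 to 421 in YCR) and stromal markers (7.02 to 12.3 and 14.7 to 28.8) separated these groups without overlap, as erythroid markers did YCRRF (1377 to 1636) from YCR (1655 to 2043) and B cell and plasma cell markers YCRRF (45.0 to 60.8) from YAL (61.6 to 115); their part was not tested. Young refed HSCs gave 0 calls among the 9 against YCR (0.0102% of 19535 genes called) and 0 against YAL (0% of 19334 genes called), with 1 and 0 at an unadjusted p under 0.05, beside 7.27% of all genes and 3.69%, and 0 by DESeq2 in both, beside 378 and 52 over all genes. The smallest p against YCR was that of Irs2, whose YCRRF values were 48.6, 53.7, 63.2 and 38.1 CPM, with a log2 fold change of 0.59 (SE 0.21, adjusted p = 0.543).

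Against YAL the smallest p in YCRRF was that of Akt1, with a log2 fold change of -0.22 (SE 0.13, adjusted p = 0.995). Whether old and young HSCs differed in their response to restriction was tested directly, as the OCR against OAL change minus the YCR against YAL change. No member was called in that fit (0.0318% of 28328 genes called), 2 of the 9 and 8.80% of all genes had an unadjusted p under 0.05, and DESeq2 called 0 of the 9 and 239 over all genes. Igf1r had the smallest p, with a difference of log2 fold changes of -0.41 (SE 0.13, adjusted p = 0.367) and a 95% interval of -0.69 to -0.13. Its young levels were 110.1, 113, 123 and 115 CPM in YAL, 124, 102, 137 and 139.7 in YCR and 129, 123, 136 and 99.8 in YCRRF, with overlap of all 3 groups. So the calls in old and their lack in young HSCs were not shown to differ for any of the 9 genes.

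Age at free feeding was compared through OAL and YAL, where 14.8% of 23525 genes were called and 3 of the 9. With 1 library left out, 1475 to 5357 genes were called, beside 3486 as reported. Among the 3, Irs1 passed the filter on low counts through OAL, as given below. Igf1r was higher in all 4 OAL than in all 4 YAL libraries, at the values given above, with a log2 fold change of 0.54 (SE 0.07, adjusted p = 0.00151). Foxo3 (chr10:42181841-42276755, minus strand) was at 44.8, 52.2, 51.8 and 56.1 CPM in YAL against the OAL values of 28.4 to 36.4, and lower in OAL by a log2 fold change of -0.65 (SE 0.12, adjusted p = 0.00638). Both calls held in all 14 alternative fits, none of which can separate age from the source of the mice or from the set of libraries. Stromal markers (16.6 to 19.3 CPM in OAL, 7.02 to 12.3 in YAL), T cell markers (3.85 to 4.38 and 1.43 to 1.95) and endothelial markers (424 to 463 and 464 to 499.6) separated OAL from YAL too, and their part in the age calls was not tested. Of the T cell markers only Cd4 averaged above 1 CPM in diet libraries. The receptor-gene background separated OAL from YAL as well, and its part in the T cell sums was not tested. All 10 old diet libraries had less Foxo3 than all 12 young ones, the highest old value being 38.3 and the lowest young value 44.5 CPM. Irs1 was at 0.591, 0.252, 0.119 and 0.549 CPM in YAL, below every OAL library. Its counts were 4 to 10 in YAL and 50 to 82 in OAL, so OAL carried it past the filter on low counts. The Irs1 call (log2 fold change 2.57, SE 0.58, adjusted p = 0.015) therefore supports no conclusion on age. It was kept in 9 of 13 alternatives (adjusted p 1.6e-05 to 0.0562) and lost without OAL replicate 1, 3 or 4 and in 1 further fit. Receptor-gene background per kilobase was likewise 0.113 in OAL and 0.0316 in YAL, beside 0.237 and 0.0413 for Irs1, and background and transcript cannot be told apart as sources of the Irs1 reads.

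Akt1 was at 353, 386, 325 and 343 CPM in YAL, above every OAL library, and had adjusted p = 0.0399 in edgeR at a change smaller than 1.2-fold, so it was not called. Foxo4 (chrX:101254528-101260873, plus strand) ran from 1.29 to 17.4 CPM in YCRRF, the highest in replicate 3, a library whose counts stand apart from those of the other YCRRF libraries (chi-square per degree of freedom of 153 to 336, against 28.4 to 56.4 among the others), while the old groups stayed between 2.64 and 4.32. Over the 6 groups, mean Igf1r descended from OAL and OCRRF through OCR to YCR, YCRRF and YAL. Only the step from OCRRF to OCR separated neighbours without overlap. For Insr the order was YAL, OAL, YCRRF, OCRRF, OCR and YCR, with a gap between OCRRF and OCR only. Foxo1 went from OAL over YAL, YCRRF, OCRRF and YCR to OCR, and each group overlapped with the next. In Foxo3 the single gap was that between the lowest young group, YCR, and the highest old one, OCRRF. Akt1 had its gap at the bottom, between OCR and OCRRF, and Irs1 at the top, between OCRRF and OCR. Irs2, Igf2r and Foxo4 had none.

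In the transplanted cells, the targeted genes were read first. Kdr, the VEGF receptor gene, was at 6.04 and 6.07 CPM in KSCR and 1.93, 2.21, 3.28 and 2.03 in KDRKD, and at 3.97 and 4.62 in DSCR and 1.24, 0.555, 1.60 and 1.35 in DKD, where the libraries stand in the order shRNA1-1, shRNA1-2, shRNA2-1 and shRNA2-2. Every knockdown library had less Kdr than its scrambles. Bmpr1a was at 5.21 and 4.43 CPM in DSCR and 4.44, 0.656, 2.22 and 0.595 in DKD, so the library labelled DKD shRNA1-1 lay within the scramble range and the other 3 below it. KDRKD libraries, which carry no Bmpr1a hairpin, had 1.67, 3.73, 7.96 and 7.67 CPM of Bmpr1a beside 8.29 and 4.37 in KSCR.

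Of the 9 genes, 8 could be tested, since Irs1 had 16 counts at most in any transplant library and was filtered out. KDRKD against KSCR gave 0 calls among the 8 by edgeR (0.0149% of 20098 genes called), 0 at an unadjusted p under 0.05 (beside 8.90% of all genes), and 0 by DESeq2 (beside 261). Irs2 had the smallest p. It was at 19.0 and 20.9 CPM in KSCR and 18.2, 9.72, 15.4 and 18.0 in KDRKD, all 4 below both scrambles, with a log2 fold change of -0.38 (SE 0.23, adjusted p = 0.661) and a 95% interval of -0.91 to 0.15. Foxo3 did not overlap either, at 22.7 and 22.1 CPM in KSCR and 18.6, 12.4, 20.8 and 21.7 in KDRKD, with a log2 fold change of -0.29 (SE 0.21, adjusted p = 0.712). The share of all genes without overlap is not given here. A lack of overlap between groups of 4 and 2 libraries therefore describes those libraries and supports no conclusion on a knockdown. DKD against DSCR also gave 0 calls by edgeR (0.00498% of 20072 genes called), with 2 of the 8 at an unadjusted p under 0.05, beside 9.85% of all genes, and 1 by DESeq2, Irs2, among 332 over all genes. Irs2 was at 20.6 and 22.3 CPM in DSCR and 12.5, 15.4, 15.8 and 14.2 in DKD, without overlap. The log2 fold change was -0.56 (SE 0.14, adjusted p = 0.306) with a 95% interval of -0.89 to -0.24, and -0.50 without the library labelled DKD shRNA1-1 (adjusted p = 0.355).

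Igf2r, singled out after its values were seen, was at 59.0 and 27.4 CPM in DSCR and 9.55, 9.47, 29.7 and 14.5 in DKD. DKD shRNA2-1 lay above DSCR replicate 2, so the groups overlapped. Foxo1 was at 33.5 and 31.8 CPM in DSCR and 28.3, 27.7, 28.0 and 29.7 in DKD, a narrow step without overlap that was not called, and at 39.0 and 36.6 in KSCR and 34.6, 43.3, 33.2 and 33.7 in KDRKD. Akt1 stayed within 281 to 337 CPM over all 12 libraries. The difference between the DKD and the KDRKD effect was tested in 1 fit with all 4 groups, and none of the 8 genes was called (0% of 21250 genes called, 0 of the 8 and 3.58% of all genes at an unadjusted p under 0.05, 0 of the 8 and 3 over all genes by DESeq2). Igf2r had the smallest p there, with a difference of -1.33 (SE 0.66, adjusted p = 1) on the log2 scale and a 95% interval of -2.77 to 0.11. Beside these values, stromal markers were at 14.3 and 17.9 CPM in DSCR and 6.57, 1.51, 1.75 and 4.17 in DKD, and B cell and plasma cell markers at 30.9 and 39.0 in DSCR and 44.0, 45.2, 43.5 and 55.9 in DKD, both without overlap. KDRKD differed from KSCR without overlap in HSC markers (2721 to 3122 CPM against 3309 and 3512), B cell and plasma cell markers (37.2 to 51.0 against 29.5 and 36.4) and stromal markers (1.75 to 5.73 against 5.98 and 6.31). The part of these markers was not tested. Of the B cell and plasma cell markers, only Cd79b (40.2 CPM) averaged above 1 CPM in the transplant libraries, so that sum rests on a single gene. Neutrophil and monocyte markers were at 4944 and 2130.0 CPM in DSCR and 775, 1311, 1624 and 3352 in DKD, with overlap.

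**Figure D2:**
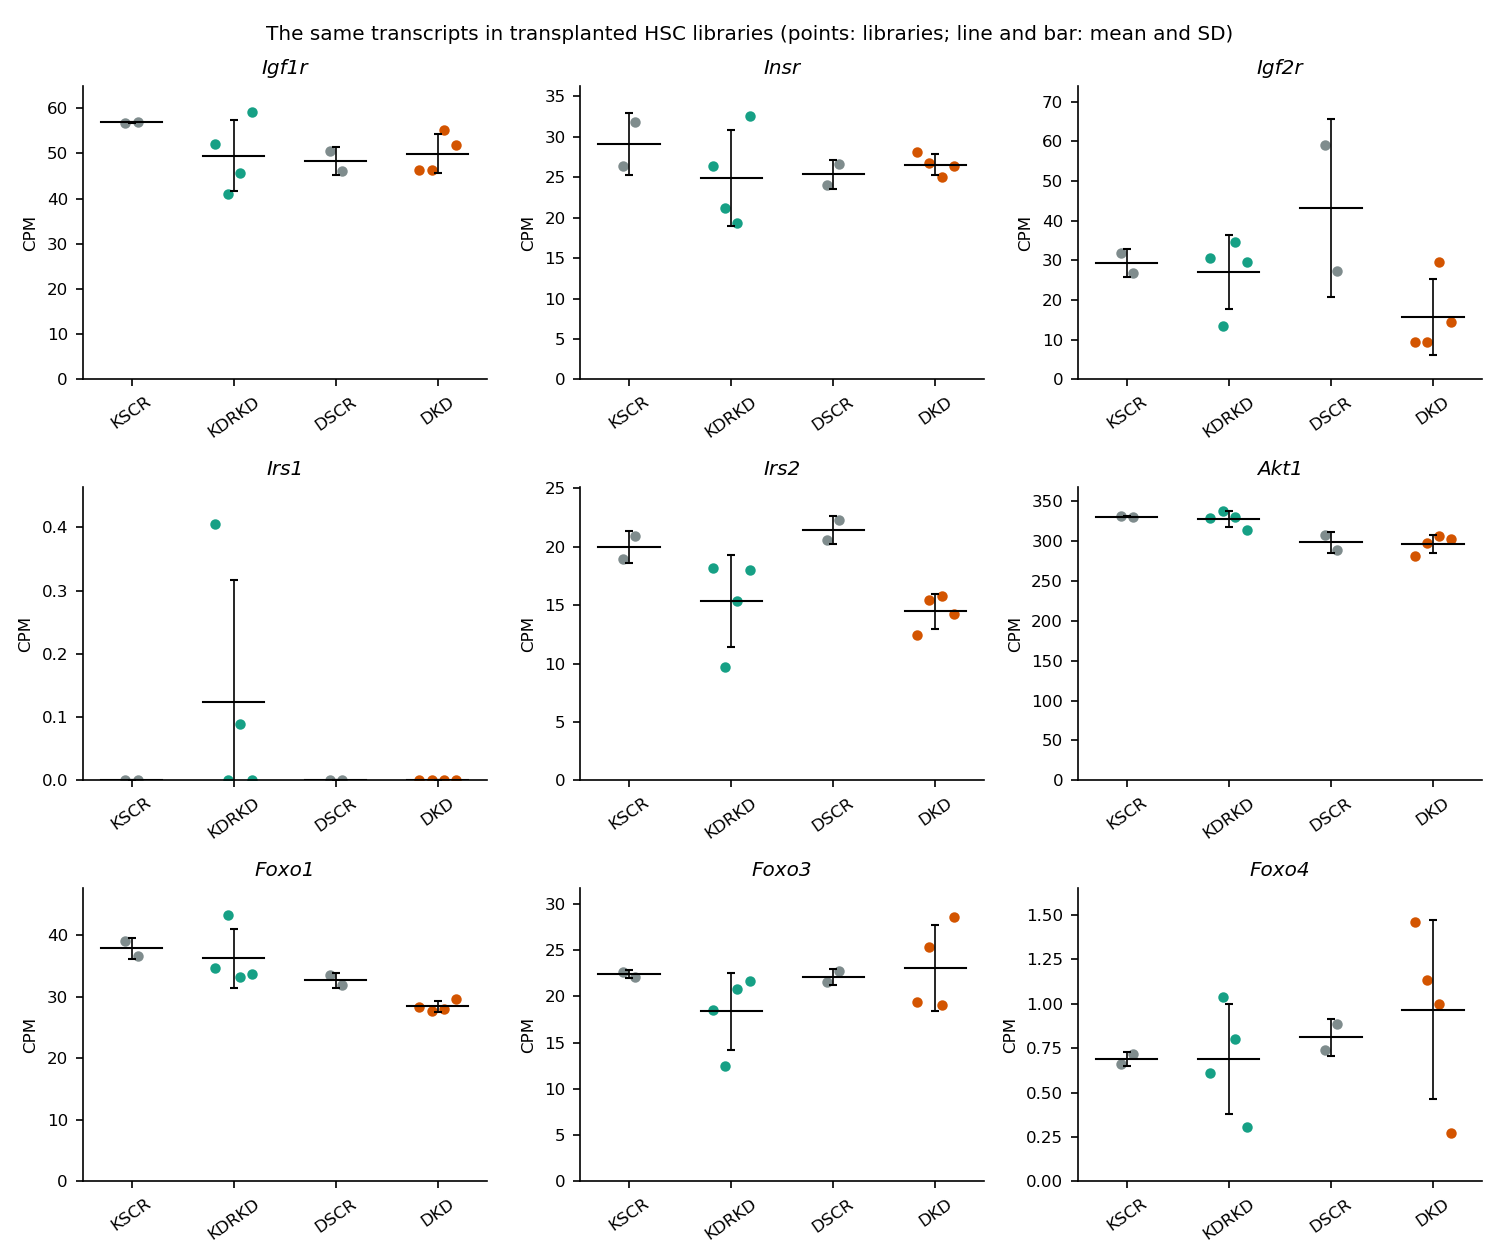
CPM of the 9 genes (y axis) in libraries of transplanted HSCs with scrambled or targeting shRNAs (x axis), with points for libraries and a line and bar for the group mean and SD (n = 2 for KSCR and DSCR, 4 for KDRKD and DKD). Irs2 is lower in all 4 DKD libraries than in both DSCR libraries, without a call by edgeR, and Irs1 is at or near 0 throughout.

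Other genes of the pathway were read from 7 lists with 111 genes in all. Ligands and binding proteins came first. Of 12 genes, 4 averaged at least 1 CPM in the diet libraries, and the insulin genes Ins1 and Ins2 and Igf2 did not. Igf1, the ligand of Igf1r, was at 18.8, 19.8, 35.1 and 22.9 CPM in YAL, 10.3, 10.8, 15.4 and 7.50 in YCR and 24.5, 7.52, 14.2 and 20.8 in YCRRF, and at 3.88, 5.45, 6.00 and 5.48 in OAL. All OAL libraries lay below all YAL libraries, with a log2 fold change of -2.20 (SE 0.24, adjusted p = 0.000399). OCR (3.42, 4.17, 6.14 and 5.25 CPM) and OCRRF (4.91 and 4.40) stood within or next to the OAL range. Igfbp4, which encodes an IGF-binding protein, was the most abundant of the list at 192 CPM on average. It was called lower in OAL (139 to 198 CPM) than in YAL (232 to 292), at a log2 fold change of -0.71 (SE 0.12, adjusted p = 0.00441). Its levels in YCR (156 to 206) lay below YAL, those in KDRKD (158 to 191) below KSCR (222.5 and 223.0) and those in DKD (136 to 166) below DSCR (206.8 and 207.7), without a call. These separations were picked beyond the naming rule, and the share of all genes that separate likewise is not given here. They support no pattern across the experiments. No gene of the list was called in OCR against OAL (8 tested) or in OCRRF against OCR (11 tested).

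In OCR against OAL, 4 of 105 tested pathway genes were called higher and 12 lower, which is 15.2% against 5.57% of all genes, and the median log2 fold change was -0.05 beside 0.02. Genes known as FOXO targets made up 8 of those called lower and 1 of those called higher, of 38 tested (23.7% against 5.57%), with a median of -0.15. The 1 called higher was Ccnd1 (0.34, SE 0.10, adjusted p = 0.0338), which FOXO proteins repress, so the list mixes induced and repressed targets. Grb10 (0.35) and Ywhah (0.38) were called higher too, as was Skp2, given below. Pdk4, which encodes a kinase that shuts off pyruvate dehydrogenase, was at 8.30, 8.90, 8.73 and 13.7 CPM in OAL and 1.17, 1.70, 2.39 and 2.16 in OCR, with 13.1 and 7.89 in OCRRF. Its OCR values lay below those of all other old libraries, at a log2 fold change of -2.40 (SE 0.21, adjusted p = 7.8e-09) from OAL and of 2.45 (SE 0.26, adjusted p = 4.0e-08) in OCRRF against OCR. Txnip, an inhibitor of thioredoxin and of glucose uptake, was at 2191, 2099, 2364 and 2678 CPM in OAL and 1114, 963, 1083 and 1208 in OCR, with 2408 and 1649.6 in OCRRF. The change of Txnip was -1.08 (SE 0.09, adjusted p = 3.0e-09) in OCR against OAL and 0.84 (SE 0.13, adjusted p = 3.0e-05) on refeeding. S1pr1, a receptor for sphingosine 1-phosphate (-0.58, SE 0.09, adjusted p = 4.1e-05), Cited2, a transcriptional cofactor of HSC maintenance (-0.55, SE 0.08, adjusted p = 2.6e-05), and the autophagy gene Gabarapl1 (-0.41, SE 0.08, adjusted p = 0.000844) fell in OCR as well. Endothelial markers, a sum mostly of Tie1, separated the same libraries, at 308 to 373 CPM in OCR and 424 to 463 in OAL. Their part in the changes of pathway genes was not tested.

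The PI3K list gave 0 higher and 2 lower of 9 tested in OCR against OAL (22.2% against 5.57% of all genes), with a median log2 fold change of 0.11 beside 0.02 over all genes. Pik3cd, a catalytic subunit found mainly in blood cells, was at 165, 148, 105 and 131 CPM in OAL, 70.0, 131, 87.6 and 98.7 in OCR and 230.0 and 168 in OCRRF. OCR and OAL overlapped while both refed libraries were the highest of the old ones, and the log2 fold change was -0.49 (SE 0.13, adjusted p = 0.0266) in OCR against OAL and 0.99 (SE 0.15, adjusted p = 3.2e-05) in OCRRF against OCR. The first call was kept in 8 of 14 alternatives and lost with genes of at least 5 CPM alone, in DESeq2 and in 4 fits that leave out a library, and the second was lost in DESeq2. In young HSCs Pik3cd was at 221, 287, 374 and 302 CPM in YAL and 126, 152, 169 and 132 in YCR, without overlap, a log2 fold change of -1.02 (SE 0.15, adjusted p = 0.0248). Only Txnip was called beside it among the 93 pathway genes tested in YCR against YAL, at 2094, 2298, 2234 and 2526 CPM in YAL and 1918, 1511, 1427 and 1275 in YCR (-0.57, SE 0.10, adjusted p = 0.0474). With any 1 library left out, 6 to 27 genes were called in YCR against YAL instead of 68, and of these 8 fits Pik3cd kept its call in 2 and Txnip in 1. The endothelial and stromal markers given above separate the same libraries, and their part was not tested. The Txnip call is also lost with the replicate block. It is lost as well with library sizes recomputed after the filter (adjusted p = 0.0509, and 0.0509 with a robust fit). Those sizes were tried first, and the full totals used here were chosen after seeing the data. Over all alternatives the call in YCR against YAL was kept in 5 of 15 for Txnip and in 9 of 15 for Pik3cd. Among phosphatases, which oppose the PI3K signal, Inpp4b was at 34.2, 39.5, 35.9 and 44.2 CPM in OAL and 20.6, 25.3, 23.5 and 26.8 in OCR, without overlap, a log2 fold change of -0.66 (SE 0.11, adjusted p = 0.000135). Skp2, a ubiquitin ligase subunit that targets FOXO1, was at 17.3, 16.3, 21.3 and 20.5 CPM in OAL and 23.6, 28.3, 24.8 and 24.2 in OCR, all 4 above OAL, a log2 fold change of 0.44 (SE 0.11, adjusted p = 0.017), called in 11 of 14 alternatives.

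Refeeding against OCR called 4 higher and 9 lower of 110 pathway genes (11.8% against 3.41%), with a median log2 fold change of -0.04 beside 0.11 over all genes. With 1 library left out, 3 to 22 pathway genes were called in this comparison and 352 to 2755 over all genes (13 and 1110 as reported). Bcl6, a repressor gene induced by FOXO proteins in lymphocytes, was at 26.1, 16.3, 24.3 and 26.1 CPM in OCR and 8.31 and 8.61 in OCRRF, a log2 fold change of -1.51 (SE 0.19, adjusted p = 5.2e-07). OAL libraries spread from 7.47 to 24.7 CPM of Bcl6. Ccnd1, the cyclin D1 gene that FOXO proteins repress, was at 63.1, 61.1, 72.5 and 53.0 CPM in OCR and 30.4 and 42.0 in OCRRF, without overlap, a log2 fold change of -0.85 (SE 0.14, adjusted p = 0.000112). Grb10, whose product binds and inhibits both receptors, was at 167, 209.9, 176 and 225 CPM in OCR and 132 and 137 in OCRRF (-0.59, SE 0.13, adjusted p = 0.00395). Cdkn2d (-0.62), a cell cycle inhibitor gene, and Ywhah (-0.61), a 14-3-3 protein gene of the family that holds FOXO in the cytoplasm, were lower by these log2 fold changes. Without OCRRF replicate 1 the refeeding calls of Ccnd1, Cdkn2d, Txnip, Grb10 and Ywhah were lost, and without replicate 2 those of Grb10 and Ywhah. Against OAL, OCRRF called 1 higher and 11 lower of 108 pathway genes (11.1% against 4.14%), and that count was 0 to 2 with 1 library left out, 0 with genes of at least 5 CPM alone, 29 with DESeq2 size factors in edgeR (where 3215 of 31816 genes were called) and 34 by DESeq2 (4577 of 51950 genes). Pik3cd was the gene called higher (0.52, SE 0.13, adjusted p = 0.0394). Pink1, a mitochondrial kinase gene (-0.45), Cited2 (-0.44), Usp7, a deubiquitinase gene (-0.45), and Mapkap1, an mTORC2 subunit gene (-0.32), were lower, as were Cdkn2d (-0.51) and Ccnd1 (-0.48). Each of these 7 calls was kept in 4 to 7 of 12 alternatives. Dok1, an adaptor gene, was called lower too (-0.31, SE 0.09, adjusted p = 0.0493) and kept its call in 5 of 12.

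Between OAL and YAL, 10 higher and 12 lower of 102 tested pathway genes were called, which is 21.6% against 14.8% of all genes. The count over all genes, 3486 as reported, was 1475 to 5357 with 1 library left out. Sgk1, a kinase gene that shares FOXO substrates with AKT, was at 30.5, 25.9, 16.2 and 25.5 CPM in OAL and 6.20, 8.69, 3.98 and 3.62 in YAL, without overlap, at a log2 fold change of 2.13 (SE 0.30, adjusted p = 0.0018). Bcl6 was higher (2.16, SE 0.42, adjusted p = 0.00839), as was Phlpp1, which encodes a phosphatase of AKT (0.79, SE 0.15, adjusted p = 0.0086). Pik3cd was lower in all 4 OAL than in all 4 YAL libraries (-1.10, SE 0.16, adjusted p = 0.00226). Ccnd2, the cyclin D2 gene (-0.81, SE 0.07, adjusted p = 7.7e-05), Klf2 (-1.26) and Bbc3, the PUMA gene (-0.76), were lower too, the last pair called in 8 of 13 and 10 of 14 alternatives. The other young comparisons, both knockdown comparisons and both tests of a difference between effects called 0 pathway genes in edgeR.

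Open chromatin was compared between OCR and OCRRF, over peaks that reach from 2 kb before the start of a gene to its end. The 9 genes held 125 of the 131918 peaks, and 1 of 121 tested was called, against 0.221% of 123372 peaks (adjusted p under 0.05 in edgeR, fold above 1.5 and mean log2 CPM above 1.5). The number of peaks called over all peaks moved by over 1.5 times under some alternatives, listed under the processing. The median log2 fold change of OCR against OCRRF was -0.05 over the peaks of the 9 genes and 0.01 over all peaks. The called peak is in the intron of Irs1, at chr1:82267206-82268041 of mm10, with 4.51, 3.61, 3.96 and 2.86 CPM in OCR and 7.11 and 6.22 in OCRRF. Its OCR values all lay below both OCRRF values, at a log2 fold change of -0.82 (SE 0.21, adjusted p = 0.0497), just under the threshold. This call was kept in 1 of the 10 alternative fits that gave the peak a value, which include the omission of each library, with adjusted p from 0.0497 to 0.336. All 6 peaks of Irs1 were lower in OCR by their fold change, as were 71 of 121 peaks of the 9 genes and 60567 of 123372 of all peaks. The peak over the Irs1 start (chr1:82290602-82291875) had 36.3, 33.8, 34.7 and 34.7 CPM in OCR and 43.6 and 39.9 in OCRRF, without overlap, and was not called (adjusted p = 0.146). Of 12 peaks at Foxo1, 2 had an unadjusted p under 0.05 and 0 were called, beside 15 of 121 over the 9 genes and 14439 of 123372 over all peaks. The first (chr3:52308710-52309481) was at 5.11, 3.86, 4.25 and 4.00 CPM in OCR and 2.54 and 2.72 in OCRRF, with a log2 fold change of 0.72 (SE 0.24, adjusted p = 0.179), and the second (chr3:52343283-52344102) at 11.6, 11.6, 11.4 and 14.5 and 16.6 and 15.0, with -0.36 (SE 0.13, adjusted p = 0.225), in opposite directions and both without overlap. At Foxo1, the peak over the start had a mean of 36.8 CPM in OCR and 37.9 in OCRRF, and at Insr 49.6 and 49.0.

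Histone marks were read here in OCR only, as mean signal per base over a promoter window. H3K4me3 marks active and poised starts and H3K27me3 is the mark of Polycomb repression. The 9 genes all carried H3K4me3 above the median of the 31552 transcripts (10.2 and 9.64 in the 2 libraries), with 42.5 and 43.0 at Insr and 42.2 and 44.9 at Foxo3 as the highest and 14.1 and 15.6 at Igf2r among the lowest. Irs1 had 18.8 and 14.6. For H3K27me3, Irs1 stood apart at 5.67 and 6.07, above 96.8 and 98.1% of transcripts. Irs2 (0.974 and 0.822) and Igf2r (0.749 and 0.989) were between the median of 0.312 and 0.316 and the Irs1 values, and the other 6 were at most 0.186. Foxo1 had 0.122 and 0.163.

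PU.1 peaks, called by the authors in each library, numbered 3046, 2900, 5464, 3852, 2817 and 2262 in OAL 1, OAL 2, OCR 1, OCR 2, OCRRF 1 and OCRRF 2, and overlap with a gene was counted from 2 kb before its start to its end. With 2 libraries a diet no exact permutation test between 2 diets can reach 0.05, and peaks are described without a test. Irs1 was the gene with a peak in all 6 libraries, in its intron within chr1:82282960-82283378, inside an ATAC peak of 42.5 CPM in OCR and 46.4 in OCRRF. The fold enrichment there was 7.69, 7.79, 11.1, 6.01, 7.81 and 7.50 in the same order of libraries, highest in OCR 1 and lowest in OCR 2. Igf1r held an intronic peak within chr7:68102835-68103167 in OAL 1, OCR 1 and OCR 2 and another within chr7:68160154-68160490 in OCR 1, OCR 2 and OCRRF 1. A peak at Foxo1 (chr3:52308947-52309173, intron) was called in OCRRF 1 alone, inside the first of the Foxo1 ATAC peaks named above, one at Igf2r (chr17:12714144-12714365, intron) and a further one at Igf1r (chr7:67985086-67985353, intron) in OCR 1 alone. None overlapped Insr, Irs2, Akt1, Foxo3 or Foxo4 in any library. A peak in at least 1 library was thus found at 4 of the 9 genes and in all 6 at 1, beside 16.9 and 4.21% of 21951 protein-coding genes, and 19.2 and 4.70% of the 15955 with a length within the range of the 9. That range takes in 15955 of the 21951 genes, so it is no close match of gene length, and the part of length was not tested. OCR 1 also had the most peaks of the 6 libraries, and replicates 1 and 2 may differ in antibody.

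**Figure D3:**
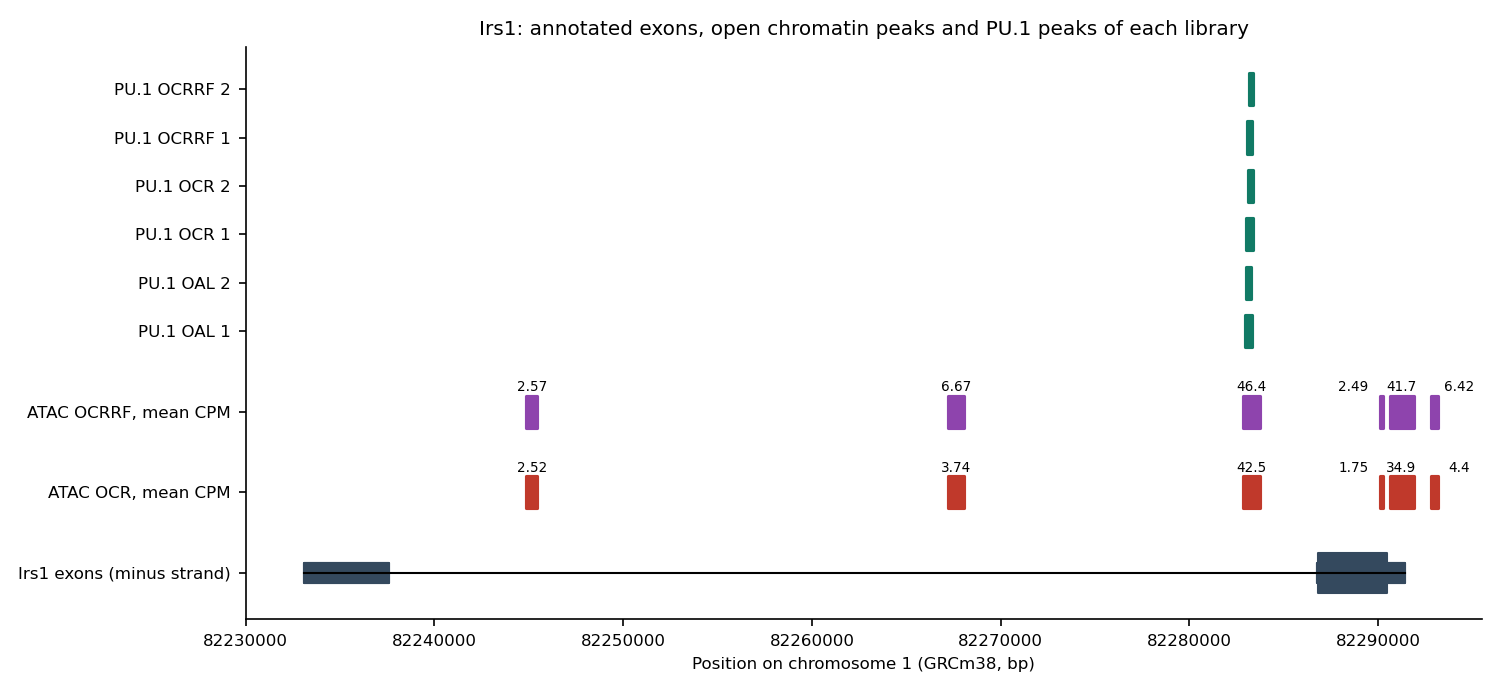
Irs1 on chromosome 1 (x axis, position in bp, GRCm38), with exons at the bottom (coding part taller), ATAC-seq peaks with their mean CPM in OCR and OCRRF above, and PU.1 peaks of each library at the top. PU.1 peaks of all 6 libraries lie in the intron, within an open chromatin peak of 42.5 CPM in OCR, and the called peak (3.74 CPM in OCR, 6.67 in OCRRF) lies further into the intron.

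The sequences under the shared peaks are shown because they are the places where PU.1 reads gathered at these genes in more than 1 library. They are RefSeq GRCm38 plus strand, 75 bases to each side of the summit in OCR 1. Capitals mark GAGGAA and GGAAGT, short words of the PU.1 and wider ETS family, found on either strand (TTCCTC and ACTTCC on the other), and the words can overlap. GGAAGT was added to the search after the sequences had been seen, and a match is a description. Within the same distance of the summit, GAGGAA was in 57.3 to 60.8% and GGAAGT in 70.2 to 72.5% of all PU.1 peaks of a library, against 14.0% and 8.61% of windows of the same length placed evenly along the genome. The Irs1 window (chr1:82283130-82283280) holds GAGGAA on both strands, once joined to GGAAGT. Of the Igf1r windows, the first (chr7:68102892-68103042) holds GGAAGT and the second (chr7:68160273-68160423) holds GAGGAA on the minus strand at its edge.
Irs1 intron: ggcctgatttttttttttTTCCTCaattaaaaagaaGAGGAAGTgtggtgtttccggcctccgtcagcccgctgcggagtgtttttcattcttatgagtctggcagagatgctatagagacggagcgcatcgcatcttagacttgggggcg
Igf1r intron, first: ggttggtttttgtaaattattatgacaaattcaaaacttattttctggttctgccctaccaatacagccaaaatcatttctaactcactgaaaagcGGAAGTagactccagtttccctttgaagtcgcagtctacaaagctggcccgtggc
Igf1r intron, second: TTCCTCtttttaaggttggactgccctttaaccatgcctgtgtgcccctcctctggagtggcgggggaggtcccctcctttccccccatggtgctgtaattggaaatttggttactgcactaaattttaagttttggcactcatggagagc

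Promoter sequences, 250 bases before to 50 after a start, were taken from a table on GRCm38.p6 that holds 8 promoters for 7 of the 9 genes, 2 of them of Akt1; it has no entry for Insr and Foxo4. The FOXO binding word GTAAACA, on either strand, was in 1 of the 8, against 3.65% of the 32851 promoters of the table. It was in the distal of the Akt1 promoters (chr12:112674835-112675134, minus strand). GAGGAA was in 2 of the 8, those of Irs1 and Foxo3, against 28.3% of all. The Irs1 promoter (chr1:82291390-82291689, minus strand) is 71.3% G and C with 28 CG steps. The Irs1 and Akt1 promoters are shown 5′ to 3′ on the minus strand, with these words in capitals on either strand.
Irs1 promoter: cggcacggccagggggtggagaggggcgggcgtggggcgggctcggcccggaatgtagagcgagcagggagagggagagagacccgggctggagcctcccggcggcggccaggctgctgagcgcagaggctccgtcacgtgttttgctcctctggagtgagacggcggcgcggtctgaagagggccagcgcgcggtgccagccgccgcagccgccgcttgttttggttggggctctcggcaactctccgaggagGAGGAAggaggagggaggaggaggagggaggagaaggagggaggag
Akt1 distal promoter: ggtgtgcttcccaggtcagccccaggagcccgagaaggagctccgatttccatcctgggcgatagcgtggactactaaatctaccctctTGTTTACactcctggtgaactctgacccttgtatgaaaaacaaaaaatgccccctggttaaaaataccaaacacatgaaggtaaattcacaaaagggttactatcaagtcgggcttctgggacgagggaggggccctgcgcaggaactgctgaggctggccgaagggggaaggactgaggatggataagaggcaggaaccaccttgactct

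Last, genes with the most similar pattern were sought over the 22 diet libraries, by Pearson r of log2 CPM after the mean of the old or of the young libraries was taken away, among genes of at least 5 CPM. These values describe the libraries, which share diet groups and depth, and carry no test. Foxo1 was nearest to Gm20402 (0.91), the antisense gene with which it shares exon bases, Vegfc (0.88) and Ldhd (0.87). For Irs2 they were Ing3 (0.84), Tbc1d20 (0.82) and Stat4 (0.81), and for Akt1 Adprh (0.91), Cherp (0.91) and Ankrd13a (0.89). Insr came closest to Chrnb1 (0.82), Cgrrf1 (0.81) and Ctsb (0.78), and Igf1r to Sgf29 (0.73), D330023K18Rik (0.73) and Dedd2 (0.72). Igf2r was nearest to Fzd6 (0.87), Tirap (0.79) and Zfp961 (0.78), and Foxo3, with the lowest values of the 9, to Pi4kb (0.66), Thsd1 (0.66) and Gm15265 (0.63). The neighbours of Foxo4, Lca5 (0.87), Ttpa (0.85) and Smurf2 (0.85), had r of at most 0.24 within the 10 old libraries, so their likeness lay in the young ones. Irs1 was nearest to Gm17535 (0.85), Gm10721 (0.81) and Zfp14 (0.80). Zfp14 with Irs1 and Zfp961 with Igf2r were split likewise, at 0.27 and 0.38 within old and 0.90 and 0.84 within young libraries.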

How the data were processed

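Counts per gene (RNA-seq) and per consensus peak (ATAC-seq) are the authors' deposited raw counts; the submitters' notes name cutadapt, STAR, BWA, featureCounts, MACS2 and mm10, and the methods Trim Galore 0.4.3 with Cutadapt 1.12. Histone files hold the authors' signal per base over promoter windows. PU.1 peak files hold the authors' MACS2 score, fold enrichment ratio, −log10 p and −log10 q, with peaks called per library. The study's reporting summary gives BWA-MEM 2.2.1 and MACS2 2.2.7.1. The STAR and featureCounts versions and the strand setting are not given in the sources used here. Full column totals were kept as library sizes after the filter, a setting chosen after seeing the data. Sizes recomputed after the filter had been tried first and gave 48 calls in YCR against YAL; other forms of the design and orders of genes and libraries left that count as it was, and a robust fit gave 69. Full totals gave 68, the count of an earlier analysis of these data, and were kept for that reason. Recomputed sizes and, for YCR against YAL alone, the robust fit are among the alternatives, added after the data were seen. With recomputed sizes the members called were the same in every comparison. Counts were filtered with filterByExpr, scaled by TMM and tested with edgeR 4.0.16 (glmQLFit, glmQLFTest) in R 4.3.3, each comparison on its own groups and over all features, with Benjamini-Hochberg adjustment; SE is the log2 fold change over the root of F, and a 95% interval uses the t distribution with the degrees of freedom of the test. DESeq2 1.42.0, other scalings and filters, a replicate block and omission of each library were alternatives. Coordinates and exon lengths come from GENCODE M21 on GRCm38. Members, lists and thresholds were chosen with earlier results of these data known. Named were members that were called or had the smallest p in a comparison, and of the called pathway genes up to 8 with the largest change at a mean of at least 1 CPM. Named beyond this rule were Ccnd1, Grb10 and Ywhah in OCR against OAL. Igfbp4 was named beyond it in OAL against YAL, YCR against YAL and both knockdown comparisons. Among members, so were Foxo3 in KDRKD against KSCR and Igf2r in DKD against DSCR. An adjusted p beyond the rule was also given for Akt1 in OCR against OAL and OAL against YAL. The same holds for Irs1 in OCRRF against OAL and against OCR. ATAC and histone libraries of OAL were not among the files used.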

Additional observations from a re-analysis of the deposited data

Results flagged for a closer look

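Among 62 sets of 4 libraries of 1 gene in 1 group, 3 had a library far from the other 3, and chance alone gives about 1 in 20 such sets. Irs1 in OCR replicate 2 was at 1.09 CPM, below the other 3 OCR libraries at 2.47 to 2.70. Foxo1 in KDRKD replicate 2 was at 43.3 CPM, above the others at 33.2 to 34.6. Foxo4 in OAL replicate 4 was at 4.32 CPM, above the others at 2.98 to 3.10.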

How the results depend on the processing

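Foxo1 and Irs2 in OCR against OAL, and Igf1r and Foxo3 in OAL against YAL, were called under every alternative run. Of 242 log2 fold changes of members refitted under an alternative, 210 kept direction and side of the threshold, 27 kept direction and lost the call, 5 gained it and 0 changed sign; of 445 for named pathway genes, 351 kept both, 94 lost the call and 0 changed sign. The PU.1 count at members was 15 peaks, and 13 at a −log10 q of at least 5, 15 with the summit inside and 11 within 50 kb of the start. The ATAC peak of Irs1 kept its call in 1 of 10 alternatives; with the replicate block and without OCR replicate 3 the member peak called is chr10:42251084-42251909 in Foxo3. Of 161 counts of pathway genes called, 38 moved by over 1.5 times. Below stand all member counts that differ and the counts over all genes or peaks that moved by over 1.5 times; the cause was not tested.

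With DESeq2 size factors in edgeR, members called were 3 in OCR against OAL (4 as reported) and 0 in ATAC OCR against OCRRF (1 as reported). Calls over all genes or peaks were 3215 in OCRRF against OAL (1316) and 1 in YCRRF against YCR (2). Without a filter on low counts, members called were 1 in OCRRF against OCR (0 as reported), 3 in OCRRF against OAL (2 as reported) and 0 in ATAC OCR against OCRRF (1 as reported). Calls over all genes or peaks were 2684 in OCRRF against OAL (1316), 368 in YCR against YAL (68), 275 in YCRRF against YCR (2), 40 in YCRRF against YAL (0), 6671 in OAL against YAL (3486), 82 in KDRKD against KSCR (3), 19 in DKD against DSCR (1), 23 in old minus young restriction response (9) and 5 in DKD minus KDRKD effect (0). With genes of at least 5 CPM alone, members called were 3 in OCR against OAL (4 as reported), 2 in OCRRF against OCR (0 as reported), 0 in OCRRF against OAL (2 as reported) and 2 in OAL against YAL (3 as reported). Calls over all genes or peaks were 55 in OCRRF against OAL (1316), 111 in YCR against YAL (68), 1743 in OAL against YAL (3486), 7 in KDRKD against KSCR (3) and 27 in old minus young restriction response (9). With DESeq2, members called were 1 in OCRRF against OCR (0 as reported), 4 in OCRRF against OAL (2 as reported), 1 in DKD against DSCR (0 as reported) and 0 in ATAC OCR against OCRRF (1 as reported). Calls over all genes or peaks were 2391 in OCRRF against OCR (1110), 4577 in OCRRF against OAL (1316), 527 in YCR against YAL (68), 378 in YCRRF against YCR (2), 52 in YCRRF against YAL (0), 7953 in OAL against YAL (3486), 261 in KDRKD against KSCR (3), 332 in DKD against DSCR (1), 239 in old minus young restriction response (9), 3 in DKD minus KDRKD effect (0) and 172 in ATAC OCR against OCRRF (273). With the Bmpr1a shRNA1 libraries alone, calls over all genes or peaks were 7 in DKD against DSCR (1). With the Bmpr1a shRNA2 libraries alone, calls over all genes or peaks were 0 in DKD against DSCR (1). With each library left out in turn, members called ranged from 2 to 4 in OCR against OAL, 0 to 1 in OCRRF against OCR, 0 to 1 in OCRRF against OAL, 2 to 4 in OAL against YAL and 0 to 1 in ATAC OCR against OCRRF. Calls over all genes or peaks ranged from 352 to 2755 in OCRRF against OCR, 38 to 386 in OCRRF against OAL, 6 to 27 in YCR against YAL, 0 to 10 in YCRRF against YCR, 0 to 1 in YCRRF against YAL, 1475 to 5357 in OAL against YAL, 0 to 12 in KDRKD against KSCR, 0 to 1 in DKD against DSCR, 2 to 27 in old minus young restriction response and 98 to 368 in ATAC OCR against OCRRF. Where an arm kept 1 library, that library was assumed to vary like the others.

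Replicate numbers are shared between groups without a label that pairs them. Deviations of same-numbered libraries from their group means correlated at -0.20 to 0.18 over the 9 comparisons of RNA groups, and no comparison with 3 or more pairs had all above 0.1. Such correlations cannot decide whether libraries were paired or shared a batch. The fits as reported use no block. With the replicate number as a block, members called were 3 in OCRRF against OCR (0 as reported), 1 in OCRRF against OAL (2 as reported) and 2 in OAL against YAL (3 as reported). Calls over all genes or peaks were 3437 in OCRRF against OCR (1110), 2080 in OCRRF against OAL (1316), 7 in YCR against YAL (68), 0 in YCRRF against YCR (2), 1651 in OAL against YAL (3486), 26 in KDRKD against KSCR (3), 0 in DKD against DSCR (1), 3 in old minus young restriction response (9) and 762 in ATAC OCR against OCRRF (273). In OAL against YAL the call lost is that of Irs1, and in OCRRF against OAL that of Foxo1; in OCRRF against OCR those gained are Akt1, Foxo1 and Irs1.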
